A study of Mus musculus with 10 samples.

Results

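Pericytes and vascular mural cells of mouse E0771 breast tumors were picked out of single-cell RNA libraries by their own transcripts: 160 of 65298 kept barcodes met the rule. The rule summed the raw UMIs (unique molecular identifiers, each standing for 1 captured RNA molecule) of 5 mural genes, Rgs5, Notch3, Abcc9, Myh11 and Kcnj8, and asked for at least 2 of them in a barcode. That sum also had to be larger than the sum of 6 endothelial genes (Pecam1, Cdh5, Kdr, Cldn5, Egfl7 and Emcn) and larger than the sum of 3 fibroblast genes (Dcn, Lum and Pdgfra). At most 1 UMI of 5 immune genes (Ptprc, C1qa, C1qb, C1qc and Skap1) and fewer than 4 UMIs of 5 tumor genes (Cdh13, Pvt1, Esx1, Fmnl2 and Aebp1) were allowed. Because the members were selected on measured values, the level of any gene in them against other barcodes is given as a description, with no test, whereas the comparison of genotypes was made over libraries.

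Pericytes lie on the outside of capillaries within the basement membrane that they share with endothelial cells, and vascular smooth muscle cells take that place on larger vessels. Endothelial PDGF-B recruits them through the receptor PDGFRB, and Notch ligands such as Jagged1 act on NOTCH3 in the mural cell. Mural cells set vessel tone by calcium entry and contraction, which cyclic GMP and its kinase oppose, and in tumors their coverage of vessels is often sparse.

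The tumors grew for 21 days from E0771 cells, a mouse breast cancer line of C57BL/6 origin, in a mammary fat pad of C57BL/6 females aged 16 weeks. KO mice carried VE-Cadherin-Cre (Cdh5-cre), which is active in endothelial cells, with Ago1 flox/flox, and WT mice were their littermates. The Cre and flox alleles carried by the WT mice are not given in the sources used here. Of 10 libraries, 5 were WT and 5 KO, and KO 2+3 and KO 5+6 each pooled 2 tumors. A pair of libraries, WT batch 1 and KO batch 1, formed batch 1, the other 8 (4 a genotype) formed batch 2, and the batches were run on different sequencing instruments. The comparison asks whether the mural compartment differed when AGO1, an Argonaute protein of the RNA silencing complex, was deleted in the endothelium.

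Several libraries stood apart before any comparison was made. Libraries held 8323896 to 10591577 UMIs in all. The kept barcodes had a median of 4049 UMIs in WT batch 1 and 3862 in KO batch 1, against 595 to 1142 in the 8 libraries of batch 2. WT batch 1 gave 4 pericyte barcodes, KO batch 1 gave 0, and WT 4 gave 4, whereas the other 7 libraries gave 15 to 26 each. The pericyte barcodes had a median of 406.5 UMIs and 290 genes, and together they held 83492 UMIs. Kept barcode sequences were also checked between libraries. Each of the 45 pairs of libraries shared 0 to 28, no 2 pericyte barcodes of different libraries were the same, and 4 pericyte barcodes occurred among other kept barcodes of another library.

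Rgs5, a regulator of G-protein signalling that is abundant in pericytes, carried most of the selection. It was detected in 148 of the 160 members (92.5%), Notch3 in 48, the sulfonylurea receptor gene Abcc9 in 30, the smooth muscle myosin gene Myh11 in 25 and the potassium channel gene Kcnj8 in 3. A UMI of a single rule gene was present in 81 members, of 2 rule genes in 66, of 3 in 11 and of 4 in 2. Of the 12 members without Rgs5, 7 had Myh11 and 7 had Notch3. The mural sum had a median of 4 UMIs and reached 40 in a barcode of WT 5. At the threshold, 38 members had exactly 2 mural UMIs, and 135 barcodes that met the other limits had 1. The tumor gene limit kept 5 members with 3 tumor UMIs and left out 38 barcodes with 4 or more that met every other limit. No barcode was left out by its endothelial or fibroblast UMIs alone.

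**Figure D1:**
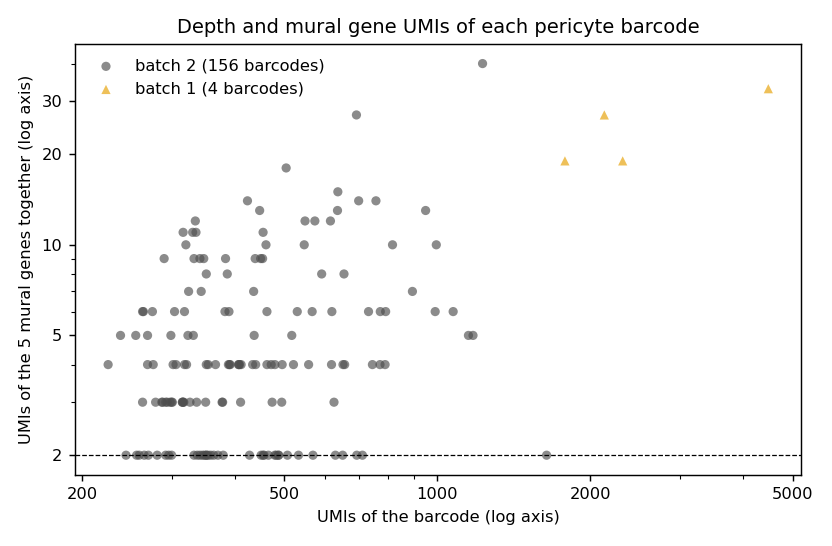
Each point is 1 of the 160 pericyte barcodes, with its total UMIs across and the UMIs of the 5 rule genes together upwards, both on log axes, and the dashed line at 2 marks the minimum of the rule. The 4 barcodes of batch 1 lie at 1782 UMIs or more, whereas those of batch 2 have a median of 390.5 UMIs.

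Rgs5 was concentrated in the barcodes that were chosen by it. They held 817 of the 1038 Rgs5 UMIs of all kept barcodes (78.7%), from 34.6% in WT 4 to 97.4% in WT batch 1 among the libraries with members. KO batch 1 had 15 Rgs5 UMIs in kept barcodes, with no member. In batch 2 the summed level of Rgs5 was 10208 CPM (counts of the gene scaled to a common total of UMIs) in pericyte barcodes, 3.31 in tumor barcodes (at least 4 tumor UMIs and at most 1 immune UMI) and 0 UMIs in endothelial barcodes (the same rule with the endothelial sum in place of the mural sum), where a count of 0 allows up to 98.6 CPM. At least 2 mural UMIs were present in 0 of 557 immune barcodes and in 40 of 49016 tumor barcodes (0.0816%). Of the immune barcodes 243 came from WT batch 1 and 265 from KO batch 1. The tumor share in batch 1 was 0.519% (3 of 578) in WT and 0.743% (3 of 404) in KO, above the pericyte shares of kept barcodes in those libraries (0.335% and 0%), at median depths of 10827.5 and 12942 UMIs. WT 4 showed the same order in batch 2, with 7 of 7571 tumor barcodes (0.0925%) above its pericyte share of 0.0426%, whereas in the other 7 libraries of batch 2 the tumor share was 0.0170% to 0.120% and lay below the pericyte share. These shares have unlike denominators, tumor barcodes and all kept barcodes. As counts, WT batch 1 had 3 such tumor barcodes beside 4 members, KO batch 1 had 3 beside 0, and WT 4 had 7 beside 4. The order in WT batch 1 thus depends on the denominator. Tumor barcodes had median depths of 662 to 1361 UMIs in the batch 2 libraries, deeper than the members. In barcodes of at most 50 UMIs Rgs5 stood at 4.87 to 46.6 CPM across libraries. The 5 mural genes together stood there at 78.6, 131, 51.3 and 72.3 CPM in WT 1, WT 3, WT 4 and WT 5. In KO 1, KO 2+3, KO 4 and KO 5+6 they stood at 137, 106, 158 and 141 CPM. The groups overlapped, with WT 3 above KO 2+3. The part of this RNA in the pericyte shares was not tested.

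The gene leading the members outside the rule was Ebf1, an early B-cell factor that is also expressed by mural and stromal cells. Leads are given as the mean, over the 7 libraries with at least 10 members, of the log2 ratio of CPM + 20 in members to CPM + 20 in the other kept barcodes of that library. The lead of Rgs5 was 8.79 and that of Ebf1 was 6.36. Ebf1 was detected in 71.9% of members and 0.926% of tumor barcodes, but fibroblast barcodes (the same rule with the fibroblast sum) also had 2991 CPM against 3984 CPM in members. Ebf2, a related factor, had a lead of 5.49. Of the 25 pericyte markers outside the rule, 22 had a UMI in the members. The gap junction gene Gjc1, which encodes connexin 45, had 1168 CPM in members and 0 UMIs in endothelial and fibroblast barcodes of batch 2. The mean CPM of Gjc1 over the 7 libraries was 1192 ± 442 (SD). Pdgfrb, the receptor that the study used as a pericyte marker with Rgs5 and Acta2, had 13 UMIs in 12 members and 0 UMIs in those of WT 3, WT 4 and KO 4. At a median of 406.5 UMIs per barcode, a missing UMI does not show that a cell lacked the RNA.

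The next leading genes included Trpc6, Prkg1, Pde3a, Gucy1a2 and Cacna2d1. Trpc6, a cation channel opened by receptor signalling, had a lead of 6.16 with 1607 CPM in members, 0 UMIs in endothelial and fibroblast barcodes and 1.78 CPM in tumor barcodes. Prkg1, the cyclic GMP-dependent kinase that relaxes smooth muscle, had a lead of 5.79 and was detected in 63.1% of members. Pde3a, a phosphodiesterase that breaks down cyclic nucleotides, and Gucy1a2, a subunit of the nitric oxide receptor guanylate cyclase, had leads of 5.47 and 5.38. The calcium channel subunit gene Cacna2d1 had a lead of 5.18. Their levels varied little between libraries for Cacna2d1 (1018 ± 200 CPM, SD, n = 7) and Trpc6 (1688 ± 413 CPM), and more for Gucy1a2 (1237 ± 725 CPM). Others among the 15 leading genes were Arhgap42, Dlc1, the actin-binding substrate gene Marcks, the collagen gene Col1a1, Notch3 and the matrix gene Postn. Of these 15 genes, 10 span 100 kb or more of the genome, against 36.7% of the 1907 genes detected in at least 5% of members.

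Contractile genes were present at low counts. A UMI was found for 20 of 22 smooth muscle contraction genes outside the rule, with Pln and Casq2 at 0. Acta2, smooth muscle alpha-actin, was detected in 42 members (26.2%) and 1.07% of tumor barcodes, with 783 CPM in members of batch 2, 7.64 CPM in tumor barcodes and 0 UMIs in endothelial barcodes. Across the 7 libraries Acta2 ranged from 104 CPM in KO 4 to 1490 CPM in WT 1. Mylk, the myosin light chain kinase, had 879 CPM in members and 0 UMIs in endothelial and fibroblast barcodes. Tagln, which encodes transgelin, had 23 UMIs and Cnn1, which encodes calponin, had 2. Cald1, the caldesmon gene, had 1621 CPM in members, but tumor barcodes also held 356 CPM and 28.4% of them had a UMI. Of the 25 members with Myh11, 9 also had Acta2 and 7 had Notch3. These counts do not separate pericytes from smooth muscle cells, since a UMI was absent for most marker genes in most members.

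Matrix genes of the basement membrane were higher in members than in tumor barcodes, and fibroblast and endothelial barcodes also held them. In batch 2 the list summed to 6320 CPM in members, 4867 in fibroblast, 2595 in endothelial and 1376 in tumor barcodes. Basement membrane genes were detected for 17 of 18, with Sparc at 1127 CPM, Col4a1 (the collagen IV chain alpha-1) at 962 CPM and Col18a1 at 563 CPM in members of batch 2, against 112, 157 and 125 CPM in tumor barcodes. The integrin gene Itgb1 had 1195 CPM in members and 528 CPM in tumor barcodes. The fibroblast marker Col1a1 had 1122 UMIs in 119 members (74.4%) and 15016 CPM, whereas fibroblast barcodes had 64392 CPM, endothelial barcodes 526 CPM and tumor barcodes 175 CPM. Fibroblast markers outside the rule were detected for 11 of 14 (Pi16, Clec3b and Dpt at 0), and Fstl1, Postn and Col1a2 stood at 1690, 893 and 838 CPM. Their summed level was 9577 to 31292 CPM across the 7 libraries, with Col1a1 the most abundant. The fibroblast genes Dcn, Lum and Pdgfra had 0 UMIs in all 160 members. They are genes of the rule, though their limit alone left out no barcode, and the 0 is given as a description. The part of fibroblast RNA in the collagen level was not tested.

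The Notch ligand gene Jag1 was detected in most members. Jag1, which encodes the ligand Jagged1 (mm10 chromosome 2, 137081456 to 137116644, minus strand), had 200 UMIs in 99 members (61.9%), and in batch 2 it stood at 2679 CPM in members, 559 in endothelial, 1115 in fibroblast and 314 in tumor barcodes. Notch3, a gene of the rule, had 728 CPM in members, and its 0 UMIs in endothelial and fibroblast barcodes follow in part from how those classes were chosen. The receptor gene Notch2 was lower in members than in tumor barcodes, at 563 against 3165 CPM. The target gene Heyl had 4 UMIs and Hes1 had 4, too few to describe. Of the 20 PDGF and Notch genes, 14 had a UMI in members. The ligand gene Pdgfa had 495 CPM against 281 CPM in tumor barcodes, and Pdgfb, the endothelial ligand for pericytes, had 1 UMI. Among 22 genes of angiopoietin, VEGF, TGF-beta, endothelin and S1P signalling, 17 had a UMI. The VEGF receptor gene Flt1 was at 632 CPM in members and 296 CPM in endothelial barcodes, the endothelin receptor gene Ednrb at 275 CPM and the TGF-beta co-receptor gene Tgfbr3 at 247 CPM. Angpt1, the angiopoietin made by mural cells, had 13 UMIs.

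**Figure D2:**
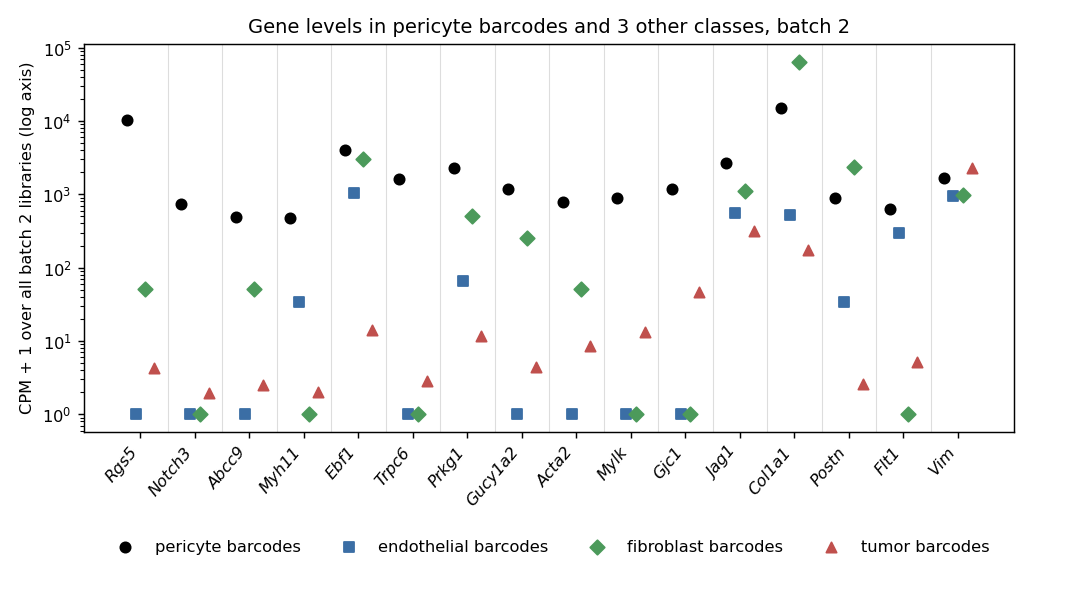
Levels of 16 genes, as CPM + 1 on a log axis over the summed batch 2 libraries, in pericyte (black circles), endothelial (blue squares), fibroblast (green diamonds) and tumor barcodes (red triangles). Points at 1 are genes with 0 UMIs in that class. Rgs5 reached 10208 CPM in pericyte barcodes, whereas Col1a1 was higher in fibroblast barcodes and Vim in tumor barcodes.

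Immune, myoepithelial, muscle, fat, nerve and red cell markers were at or near 0 in the members, whereas some genes of the endothelial and tumor lists were not. Of 12 endothelial markers outside the rule, 7 had a UMI, and Cd34, Vwf, Tie1, Tek and Robo4 were at 0. Most of these UMIs were of Fabp4 and of Flt1, which was higher in members than in endothelial barcodes. Their sum ran from 286 CPM in KO 1 to 2076 CPM in WT 3. Of 13 immune markers, Cd74 alone had UMIs, 3 in all. Myoepithelial markers, which matter here because myoepithelial cells also make smooth muscle actin, had UMIs for 2 of 7 genes, 3 UMIs in all, with Krt5 and Krt17 at 0. Skeletal muscle, fat, nerve and red cell markers had UMIs for 2 of 12 genes, again 3 in all. Tumor markers had UMIs for 6 of 8, with Vim at 1662 CPM in members and 2282 CPM in tumor barcodes, and Tead1 at 398 and 328 CPM. Of the 227 UMIs of this list, Vim had 38 in batch 1 and 121 in batch 2. In batch 2 the list summed to 2569 CPM in members, 1577 in endothelial, 1572 in fibroblast and 3143 in tumor barcodes. Epcam, an epithelial adhesion gene, had 20 UMIs that all came from a single barcode of KO 4. That barcode held 1640 of the 9603 UMIs of the KO 4 members and met the mural minimum by 2 Notch3 UMIs. It had 0 UMIs of Rgs5, Ebf1, Col1a1, Acta2 and Pdgfrb, so these markers do not show it to be a pericyte. The KO 4 gene levels and the main gene fit include it. Of the 160 members, 105 had no UMI of the 5 tumor genes of the rule. How far tumor RNA entered the other levels was not tested.

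Early response genes were above the tumor level in members, whereas glycolysis genes were not. All 13 immediate early and stress genes had a UMI, with Fos at 893 CPM and Egr1 at 522 CPM in members against 51.7 and 2.07 CPM in tumor barcodes. Fibroblast barcodes had 1369 CPM of Fos and 1065 CPM of Egr1. Interferon and MHC class I genes had UMIs for 18 of 19, with B2m at 646 CPM and Gbp7 at 577 CPM. The chemokine genes Ccl2 and Cxcl9 had 23 and 25 UMIs, and 14 of the 25 Cxcl9 UMIs lay in the 4 barcodes of batch 1. Hypoxia and glycolysis genes had 95 UMIs in all, with Ldha at 206 CPM in members and 342 CPM in tumor barcodes. Cell cycle genes had 33 UMIs over 9 of 12 genes.

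The members of the 2 batches differed in which pericyte genes could be seen. The 4 barcodes of WT batch 1 held 10705 UMIs, and the 156 of batch 2 held 72787. Higd1b, a mitochondrial protein gene typical of pericytes, had 28 UMIs in batch 1, at least 1 in each of the 4 barcodes, and 0 in batch 2, which makes its level at least 63.5-fold higher in batch 1 (2616 CPM against a limit of 41.2 CPM that a count of 0 allows). Ndufa4l2, another mitochondrial gene of pericytes, had 13 and 0 UMIs, at least 29.5-fold higher. Cox4i2 had 14 of its 17 UMIs in batch 1, Kcnj8 9 of 10 and Acta2 55 of 112. Acta2 was 6.56-fold higher in batch 1, at 5138 against 783 CPM. Gapdh was 23.4-fold higher, at 2896 against 124 CPM. Other mural genes were lower in batch 1, among them Prkg1 (747 against 2308 CPM), Ebf1 (1495 against 3984), Trpc6 (747 against 1607) and Notch3 (467 against 728). Rgs5 had 6913 CPM in batch 1 and 10208 CPM in batch 2, and it, Abcc9 (560 against 495) and Myh11 (374 against 467) were within 1.5-fold of equal. These are sums over barcodes of 1 batch 1 library, and they were not tested.

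The RNA makeup differed between the same libraries. In members of batch 1, ribosomal protein genes took 12.7% of UMIs, mitochondrial genes 3.16%, Malat1, a nuclear RNA, 1.75% and genes of 100 kb or more 13.6%. In members of batch 2 the values were 0.984%, 0.642%, 0.166% and 30.9%. Actb took 1.91% in batch 1 and 12.8% in batch 2. Tumor barcodes differed the same way, with 18.5% and 19.6% of ribosomal protein UMIs in the 2 libraries of batch 1 and 2.63% in batch 2, and with 11.8% and 11.9% against 26.6% of long-gene UMIs. Batch, instrument and depth cannot be told apart here. The long genes that lead the members were ranked in batch 2 libraries alone.

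**Figure D3:**
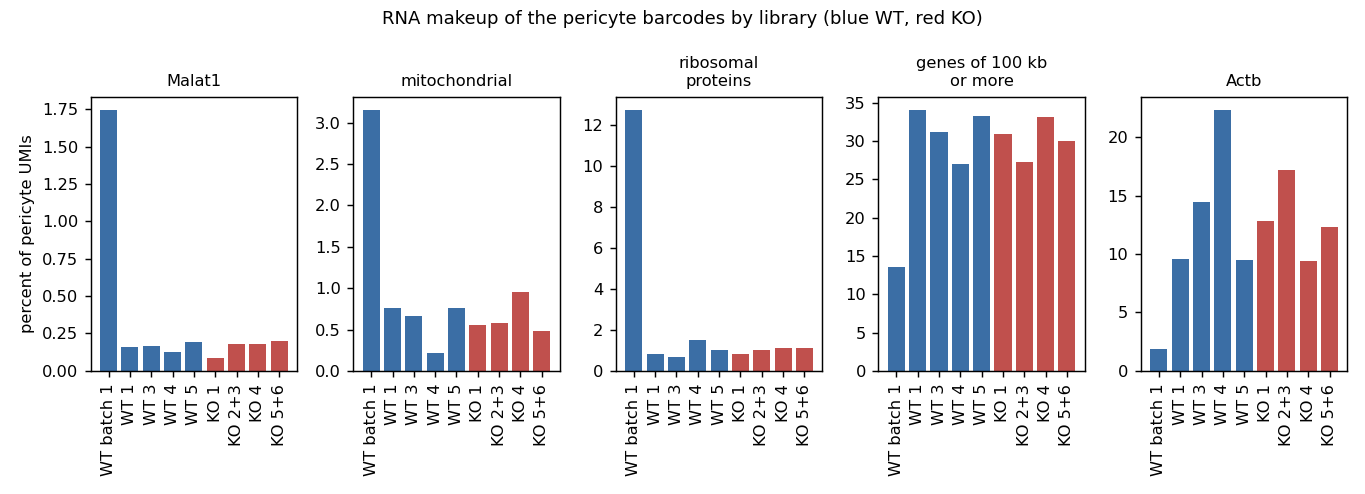
Percent of the UMIs of pericyte barcodes taken by Malat1, mitochondrial genes, ribosomal protein genes, genes spanning 100 kb or more, and Actb, in each library with members. WT batch 1 has 12.7% of ribosomal protein UMIs, and the batch 2 libraries sum to 0.984%.

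Pericyte shares of the 2 genotypes overlapped when all libraries were used. As a percent of kept barcodes, the members made up 0.335 in WT batch 1, 0.226 in WT 1, 0.226 in WT 3, 0.0426 in WT 4 and 0.241 in WT 5. The shares were 0 in KO batch 1, 0.311 in KO 1, 0.379 in KO 2+3, 0.263 in KO 4 and 0.360 in KO 5+6. WT 4 and KO batch 1 were the lowest libraries of their groups, and the 0 of 968 barcodes in KO batch 1 allows a share of up to 0.310% by the 3-count limit and 0.380% by the exact binomial interval. WT libraries averaged 0.214% ± 0.106 and KO libraries 0.263% ± 0.154 (SD, n = 5 each). The difference of 0.0486 percentage points did not pass a two-sided exact test that permuted library labels inside each batch (p = 0.586). It was 0.00564 points without WT 4 and turned to -0.0228 points without the pooled KO libraries. For single libraries the exact binomial 95% interval was wide, for example 0.0116% to 0.109% in WT 4 and 0.246% to 0.559% in KO 2+3, and covers counting error only.

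Within batch 2 the groups did not overlap. The 4 KO libraries had 0.328% ± 0.0523 and the 4 WT libraries 0.184% ± 0.0946, and the difference of 0.144 points gave p = 0.0286 in the exact permutation test, the smallest p that 4 against 4 libraries allow. The call was lost when the barcodes with fewer than 4 tumor UMIs were the denominator (p = 0.229, exact permutation test), where WT 1, WT 3, WT 4 and WT 5 stood at 1.22%, 0.886%, 0.220% and 1.25% and KO 1, KO 2+3, KO 4 and KO 5+6 at 1.06%, 1.12%, 1.25% and 1.42%. Without WT 4 the batch 2 difference was 0.0973 points (exact p = 0.0571), and without KO 2+3 or KO 5+6 the exact p was also 0.0571. The call was lost as well with at least 3 mural UMIs (exact p = 0.0857), with at least 100 genes or no tumor gene limit (exact p = 0.114 each) and with at least 500 UMIs (exact p = 0.0571). The opposite sign in batch 1, 0.335% in WT against 0% in KO, has 1 library a group and no test. Rgs5 over all kept barcodes, which needs no rule, stood at 13.6 ± 4.45 CPM in WT libraries and 16.7 ± 9.38 CPM in KO libraries (n = 5 each, exact permutation p = 0.414). In batch 2 alone it stood at 14.4 ± 4.67 and 20.4 ± 5.46 CPM (n = 4 each, exact permutation p = 0.171).

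Among vascular barcodes the balance of pericytes and endothelial cells was also uncertain. Pericyte barcodes outnumbered endothelial barcodes in each batch 2 library, and were fewer in both libraries of batch 1 (4 against 6 in WT and 0 against 8 in KO). In batch 2 the pericyte percent of the sum was 85.2 in WT 1, 78.3 in WT 3, 80.0 in WT 4 and 75.0 in WT 5, against 72.2, 53.2, 63.3 and 81.2 in KO 1, KO 2+3, KO 4 and KO 5+6. The lowest value of batch 2 was that of KO 2+3, with 22 endothelial barcodes, and KO 5+6 overlapped the WT libraries. Over all libraries WT averaged 71.7% ± 18.1 and KO 54.0% ± 31.9 (n = 5 each, exact permutation p = 0.0714), and within batch 2 the difference was -12.1 points (exact p = 0.143). Without KO 5+6 the difference over all libraries was -24.5 points (exact p = 0.0143), and without KO batch 1 it was -4.19 points (exact p = 0.729). With barcodes of at least 500 UMIs alone the sign turned, to 2.94 points (exact p = 0.814).

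**Figure D4:**
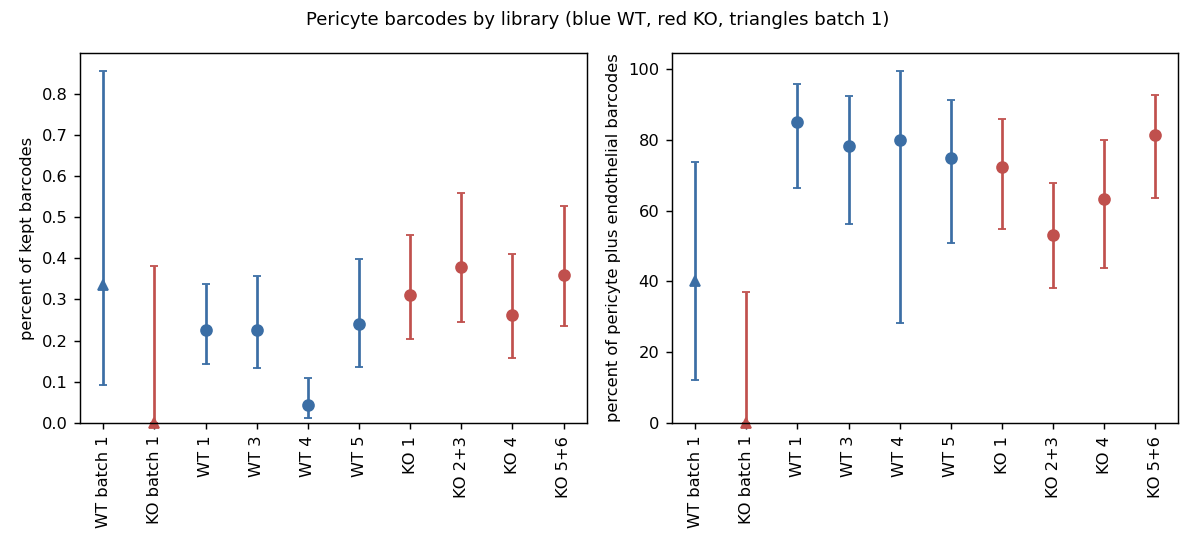
Pericyte barcodes as a percent of kept barcodes (left) and of pericyte plus endothelial barcodes (right) in each library, with exact binomial 95% intervals as bars, WT in blue, KO in red and batch 1 as triangles. On the left the 4 KO libraries of batch 2 lie between 0.263% and 0.379%, above the WT libraries of that batch, and KO batch 1 is at 0.

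Gene levels of KO and WT members were compared in the 7 libraries with at least 10 members, WT 1, WT 3 and WT 5 against KO 1, KO 2+3, KO 4 and KO 5+6, all of batch 2, with 152 of the 160 members. After the count filter 111 genes could be tested, which held 28.4% to 36.6% of the UMIs. None was called by edgeR at an adjusted p under 0.05 (0% of genes tested), while 13 had an unadjusted p under 0.05, and DESeq2 called 0 with 8. WT and KO libraries did not overlap for 12 of the 111 genes (10.8% of genes tested). Among the genes of the rule, Rgs5 alone passed the filter. Of the 28 tested genes that the naming rule picked, the groups did not overlap for 5. Of these, Marcks, Pde3a, Lpp and B4galt1 were listed for their small p, and Rgs5 is a gene by which the members were chosen.

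Jag1 had the smallest p among genes higher in KO. Its TMM-scaled level was 1299, 1409 and 1844 CPM in WT 1, WT 3 and WT 5, and 3488, 4128, 1704 and 2848 CPM in KO 1, KO 2+3, KO 4 and KO 5+6. KO 4 lay inside the WT range and the other 3 KO libraries lay above it. The log2 fold change was 1.01 (SE 0.35, edgeR unadjusted p = 0.00965, adjusted p = 0.235). Tumor barcodes of the same libraries had 310 ± 22.4 CPM (WT) and 290 ± 30.4 CPM (KO) of Jag1, and barcodes of at most 50 UMIs had 139 ± 25.7 and 106 ± 22.4 CPM. The other genes of smallest p on that side were the glycosyltransferase gene B4galt1 (log2 fold change 0.87), the trafficking GTPase gene Arf4 (1.17), the kinase gene Pim1 (1.21) and the nuclear RNA Neat1 (1.09). Leaving out a library lowered Arf4 to 0.73 (without KO 5+6), Pim1 to 0.71 (without WT 5) and Neat1 to 0.70 (without KO 4), and Pim1 was 1.83 without WT 1. When barcodes with at least 100 genes were admitted, the estimate for B4galt1 was 0.18 and that for Jag1 was 0.49. Tumor barcodes of the same libraries had B4galt1 at 2289 CPM (WT) and 2514 CPM (KO), Neat1 at 3232 and 3816, Arf4 at 603 and 719, and Pim1 at 631 and 814 CPM. In the members the summed level of the tumor markers outside the rule was 1895 ± 564 CPM in WT libraries and 3035 ± 1026 CPM in KO libraries, and that of the 5 tumor genes of the rule 668 ± 351 and 997 ± 433 CPM. Vim was the most abundant gene of the first sum. It had 8, 13 and 5 of the 14, 17 and 12 UMIs in WT 1, WT 3 and WT 5. In KO 1, KO 2+3, KO 4 and KO 5+6 it had 13, 36, 16 and 27 of 21, 43, 42 and 35. Without the single KO 4 barcode that had Epcam, the first sum went from 42 to 20 UMIs in that library and averaged 2570 ± 509 CPM over the KO libraries. The levels and fold changes of single genes were not recomputed without this barcode. The part of tumor RNA in these estimates was not tested. None of these genes passed the adjusted threshold in edgeR.

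Among genes lower in KO the smallest p values belonged to Gucy1a2, Pde3a and Marcks. Prkg1, another leading gene, had a log2 fold change of -0.26 (SE 0.35, edgeR adjusted p = 0.859), and 0.20 without the pooled KO libraries. Gucy1a2 (chromosome 9, 3532778 to 3894736, plus strand) was at 2208, 1127 and 2335 CPM in WT 1, WT 3 and WT 5, and at 678, 826, 319 and 1221 CPM in KO 1, KO 2+3, KO 4 and KO 5+6. The highest KO library, KO 5+6, lay above the lowest WT library. Its log2 fold change was -1.24 (SE 0.40, edgeR adjusted p = 0.235), from 17, 8 and 19 UMIs in WT and 7, 11, 3 and 18 in KO. Pde3a was at 2078, 1268 and 1721 CPM in WT and 484, 525, 1065 and 1153 CPM in KO, with a log2 fold change of -1.05 (SE 0.39). Its groups did not overlap, but the adjusted p in edgeR was also 0.235. Marcks averaged 3821 ± 381 CPM over the 3 WT and 2306 ± 246 CPM over the 4 KO libraries (log2 fold change -0.73, SE 0.27). With barcodes of at least 100 genes the estimates were -0.66 for Pde3a, -0.39 for Marcks and -0.39 for Lpp. The focal adhesion gene Lpp had a log2 fold change of -0.65. In barcodes of at most 50 UMIs Gucy1a2 was higher in KO, at 59.2 ± 27.2 CPM (WT) and 109 ± 16.4 CPM (KO), with no overlap. Pde3a stood there at 55.8 ± 24.6 and 85.8 ± 13.9 CPM, with overlap, and Marcks at 207 ± 51.6 and 200 ± 27.7 CPM. The part of this RNA in the estimates was not tested. Gm10800, a predicted gene with a log2 fold change of -1.05, averaged 5783 CPM over WT members and 2846 CPM over KO members. The WT mean rested on WT 5, at 10816 CPM against 2728 in WT 1 and 3804 in WT 3, and without WT 5 the log2 fold change was -0.18. Barcodes of at most 50 UMIs had more of it on average, 19656 CPM (WT) and 31214 CPM (KO). The WT mean there rested on WT 3, at 36498 CPM against 11952 in WT 1 and 10518 in WT 5. In WT 5 this was close to the level in members.

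Marker lists showed no call in either direction. Rgs5 was at 11431, 10568 and 14134 CPM in WT and 8817, 9082, 9691 and 9766 CPM in KO, so that each KO library was below each WT library. This is a description alone, since the members were chosen on their Rgs5 UMIs. Of the 25 pericyte markers outside the rule 2 were tested, Ebf1 (-0.19) and Gjc1 (-0.23), and of the 22 contraction genes Cald1 was the single gene tested (-0.25). Basement membrane gave Sparc (0.51) and Itgb1 (0.00), and the fibroblast list gave Col1a1 (-0.41), Fstl1 (-0.30), Col1a2 (-0.31) and Col3a1 (-0.60). Of the 14 genes of that list these 4 were all lower in KO as point estimates, and 0 passed the test, where the median log2 fold change over all 111 genes was 0.00. From the tumor list Vim was tested (0.73) and from the early genes Fos (1.17). Tumor barcodes of the same libraries had Vim at 1952 ± 464 CPM (WT) and 2625 ± 267 CPM (KO), and Fos at 34.4 ± 13.1 and 64.0 ± 23.0 CPM. Col1a1 was lower in KO outside the members too, at 514 ± 102 CPM (WT) and 317 ± 48.9 CPM (KO) in barcodes of at most 50 UMIs, where the groups did not overlap, and at 224 ± 60.6 and 143 ± 88.1 CPM in tumor barcodes, where they did. The part of RNA from other cells in these estimates was not tested. With at least 3 mural UMIs in a member the Col1a1 estimate was 0.09. The estimates also moved with single libraries: Gjc1 was 0.04 without KO 2+3, Cald1 0.06 without KO 4, Col1a2 0.31 without WT 3, Col1a1 -0.11 without WT 3, and Sparc 1.21 without WT 1 and -0.0039 without WT 3, which had 0 Sparc UMIs. Over the libraries left out Ebf1 ranged from -0.38 to -0.02, Cald1 from -0.63 to 0.06, Fstl1 from -0.53 to -0.04 and Vim from 0.44 to 1.22. Without the pooled KO libraries Ebf1 was 0.04. Fos stood at 130, 1127 and 246 CPM in WT and 581, 1201, 1278 and 1289 CPM in KO, a spread inside WT as wide as the difference, and its fold change was 0.69 without WT 1 and 2.49 without WT 3. The lists of endothelial, immune, myoepithelial, chemokine, interferon, cell cycle, hypoxia and Argonaute genes had no member in the test, nor did VEGF and angiopoietin signalling or muscle, fat, nerve and blood markers.

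**Figure D5:**
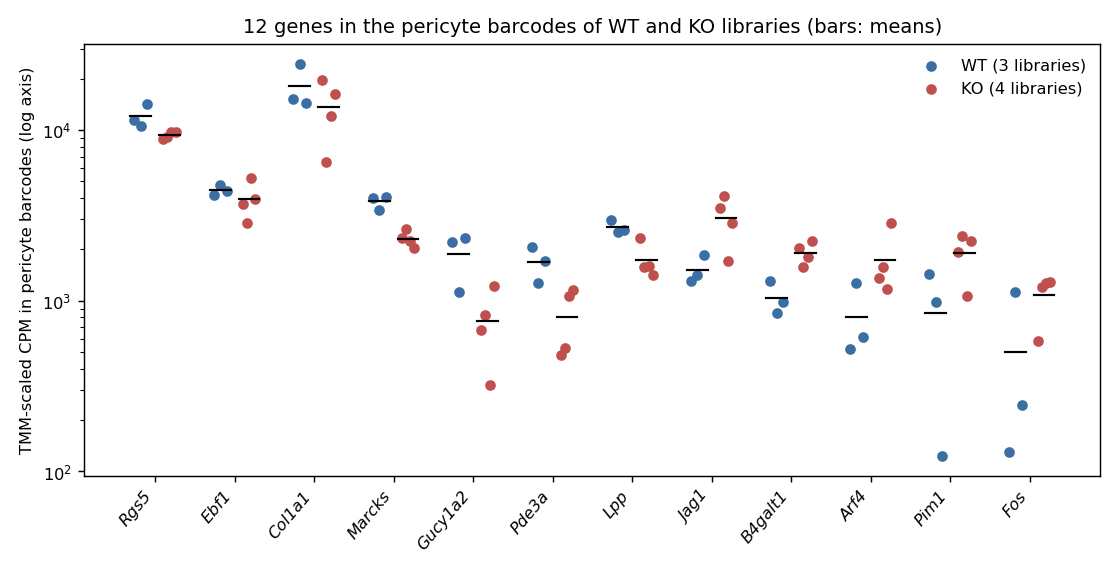
TMM-scaled CPM, on a log axis, of 12 genes in the pericyte barcodes of 3 WT (blue) and 4 KO (red) libraries, with means as bars. Marcks, Pde3a, Lpp, B4galt1 and Rgs5 (a gene of the rule) have no overlap between the groups, Jag1 and Gucy1a2 overlap in 1 KO library, and none of the 12 was called.

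Ago1 itself gave 2 UMIs in the 160 members, 1 in WT batch 1 and 1 in KO 2+3, and Ago2, Ago3 and Ago4 gave 9, 12 and 1. The Cre is driven in endothelial cells, so pericyte barcodes do not check the deletion. In endothelial barcodes of batch 2 Ago1 had 0 UMIs of 30439, which allows up to 98.6 CPM, so the knockout could not be checked there either at this depth.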

How the data were processed

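Cells of 10 tumor libraries were profiled with 10x Genomics 3' chemistry, and the authors deposited raw UMI counts per gene and barcode, made with Cell Ranger 7.1.0 (per the labels) on the mm10 mouse genome. Each library held 8323896 to 10591577 UMIs. The authors' own filter of 200 to 7000 genes and at most 10% mitochondrial UMIs was applied to all 31053 features, leaving 65298 barcodes, and no doublet caller was run. Members were chosen as described, from raw counts, and the members, gene lists and comparisons were chosen with earlier results of these data known. Libraries, not cells, were the samples. No source says how far libraries of a group were processed separately, so p-values measure the spread between them.

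Shares were compared by exact two-sided permutation of library labels within batch (Python 3.11.15, SciPy 1.17.1). Summed counts per library, with at least 10 members, were tested with edgeR 4.0.16 (TMM, filterByExpr, quasi-likelihood, Benjamini-Hochberg over all genes tested), and DESeq2 1.42.0 was an alternative. The batch term that was planned was not needed, and the contrast of batch 1 with batch 2 was not run, because no batch 1 library had 10 members. Simulated data with 21 genes changed by a log2 fold of 2, run on 109 genes, gave back 90.5% of the changed genes with 2 false calls. The dispersion of these counts was a set value, not estimated from the members. Smaller changes, such as those estimated here, were not simulated, so the share of them that the test would call is not known. Named genes were the rule genes, up to 4 most abundant genes of each list with at least 20 UMIs in members, up to 5 genes of smallest p in each direction, the 15 leading genes, and Ago1, Rgs5, Acta2 and Pdgfrb. The other genes named were chosen after their values were seen. Some genes that this rule picks are not reported here. Gene spans came from GENCODE vM21 (GRCm38), which matched 31011 of 31053 features.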

Additional observations from a re-analysis of the deposited data

Results flagged for a closer look

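Over 48 groups of 4 or 5 libraries checked for a single library far from the rest, 5 were marked, and chance marks about 1 group in 20. WT 4 had the lowest pericyte share of kept barcodes in batch 2 WT (0.0426%). WT batch 1 had 4 pericyte among 10 vascular barcodes (40%), a percent below the other WT libraries, and a median of 2222.5 UMIs per pericyte barcode, above them. KO batch 1 had 0% among barcodes with fewer than 4 tumor UMIs, the lowest of 5 KO libraries. Fos in KO 1, at 581 TMM-scaled CPM, was below the other 3 KO libraries.

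The difference in pericyte share, KO minus WT, was -0.335 percentage points in batch 1 and 0.144 in batch 2, and the difference between the batches was not tested. Rgs5 was also found outside the kept barcodes, as 383 UMIs in barcodes of at most 50 UMIs (26.2 CPM).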

How the results depend on the processing

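Small counts limit these results: the members had a median of 406.5 UMIs, and 111 genes could be tested. WT 4 and WT batch 1 gave 4 members each and KO batch 1 gave none, and the cause of this was not tested. Settings for 1 batch, other gene minimums and the Rgs5 total were partly chosen after seeing the data. The share difference over all libraries (0.0486 points) was 0.144 with batch 2 alone (exact permutation p = 0.0286), and turned to -0.0228 without the pooled KO libraries and -0.000322 within batch without WT 4. Leaving out 1 library gave 0.00564 to 0.114. In batch 2 alone the difference lost its call with the E under 4 denominator (0.318, where E is the sum of the 5 tumor genes), 3 mural UMIs (0.103), 100 genes (0.114), no tumor gene limit (0.113) and 500 UMIs (0.127), and without WT 4, KO 2+3 or KO 5+6, with a range of 0.0973 to 0.166 over the libraries left out. With at least 300 genes the batch 2 difference was 0.168 (exact permutation p = 0.0286).

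The vascular share difference (-17.7 points) turned to 2.94 with at least 500 UMIs and 2.03 when thinned to 500 UMIs, and passed the test without the pooled KO libraries (-26.5, exact permutation p = 0.0333). Leaving out 1 library gave -25.6 to -4.19. The Rgs5 total gave 0.519 to 6.74 CPM. As a replicate block, the shared numbers 1 and 4 and the batch 1 pair gave -0.00967 points for the kept share (exact p = 1) and -23.2 for the vascular share, where 3 pairs cannot go below p = 0.25, and these libraries share only a number. For gene levels WT 1, WT 3 and WT 5 were set beside KO 1 and the pools that hold numbers 3 and 5, and this block, added after seeing the data, gave 0 calls of 124 genes in edgeR, with 16 at an unadjusted p under 0.05. Gene calls stayed at 0 except for 1, Gucy1a2, lower in KO, without the pooled KO libraries. The fit with at least 20 members a library left 1 WT library, assumed to vary like the KO libraries. A minimum of 5 members, batch 2 alone and no covariate left the gene fit as it was. Of 477 estimates of the 28 tested named genes under the other settings, 421 kept their direction. The cause of these changes was not tested.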
